A study of Mus musculus with 6 samples.

Results

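The genes described here are targets and regulators of the sterol regulatory element-binding proteins (SREBPs), a list of 39 genes chosen by name, of which 38 were among the 14669 rows of the deposited table. The remaining one, Pnpla3, was read only in the promoter search. They were read as a cholesterol arm of 19 genes, mainly driven by SREBP2, a fatty acid arm of 13 genes, mainly driven by SREBP1, and 6 regulators. All 38 passed the filter on low values, a mean of at least 1 FPKM (fragments counted for a gene, scaled to its length and to the library total).

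SREBPs are made as membrane proteins of the endoplasmic reticulum, bound to the escort protein Scap. When sterols are low, Scap carries them to the Golgi, where proteases release the part that enters the nucleus and switches on its targets; when sterols are high, the Insig proteins hold Scap back. In liver, insulin raises Srebf1 transcription, and the lipogenic genes also answer to ChREBP, the carbohydrate-responsive factor encoded by Mlxipl.

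Livers came from wild-type male C57BL/6J mice aged 8 weeks. A rapid, large-volume injection into the circulation (hydrodynamic injection) had delivered 25 µg of plasmid, plko-scramble with a control hairpin or plko-shBicd2 with a hairpin against Bicd2, the dynein cargo adaptor, in 2.5 ml of saline. Both groups then received concanavalin A (ConA), a lectin that causes T cell-driven hepatitis, at 15 mg/kg intravenously on day 3, and tissue was taken after 6 h, so every comparison is between plasmids within hepatitis. Each group had 3 RNA-seq libraries: the scramble ones are Sc3, Sc4 and Sc5, the shBicd2 ones sh1, sh3 and sh6, with values given in that order. The labels tie no library to a separate animal, so p-values measure the spread between these libraries, which may be technical, and they do not give the share of liver cells that took up plasmid.

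Recovered depths lay between 16032380 and 18929660 reads. Bicd2 was at 3.13 to 4.14 FPKM in scramble and 2.57 to 3.61 FPKM in shBicd2, with overlap, so the libraries labelled shBicd2 showed no detectable fall of the target (log2 fold change -0.17 ± 0.16 SE, limma adjusted p = 0.624). Library sh1 stood apart, with correlations of 0.893 to 0.939 to the other libraries across genes. The hepatocyte markers were abundant in every library, with the 7 listed genes summing to 21431 to 27451 FPKM in scramble and 27768.5 to 34903 FPKM in shBicd2, without overlap. Alb, whose own groups overlapped, made up most of each sum. Apoa1, Ttr and Serpina1a were higher without overlap, and Apob, Cps1 and Hnf4a overlapped with lower means. Summed levels of 5 endothelial markers (17.1 to 21.4 against 11.5 to 14.7 FPKM), 5 stellate markers (33.0 to 43.7 against 13.4 to 32.0 FPKM) and the 3 cholangiocyte markers found of 4 (8.14 to 13.2 against 3.51 to 6.76 FPKM) were lower in shBicd2. Those of 5 Kupffer, 5 T and NK cell and 4 neutrophil markers overlapped. Single markers differed, also where the sums overlapped. Neutrophil Cxcr2 and Csf3r were lower without overlap (mean ratios 0.433 and 0.641). S100a8 and S100a9 overlapped with lower means (0.743 and 0.692), and S100a9 made up most of the neutrophil sum. Gzma was lower without overlap (0.669), and Cd3e was higher without overlap (1.43) on 5 to 10 reads. Cd3d, Cd8a and Nkg7 overlapped. All 5 Kupffer markers overlapped with lower means. Endothelial Lyve1 and Pecam1 were lower without overlap (mean ratios 0.448 and 0.623). Stab2, Clec4g and Kdr overlapped, with higher means (1.07, 1.92 and 2.33) and their highest values in sh1. In sh6, Clec4g was below every scramble value. Kdr was at 2.18 FPKM in sh1 and under 1 FPKM in every other library, and its mean was too low for it to be tested. Of the stellate markers, Dcn and Ecm1 were lower without overlap, and Colec11, Lrat and Reln overlapped. The cholangiocyte sum was mostly Sox9, with Krt7 and Epcam under 1 FPKM and overlapping. None of these markers was at 0, but neither was any deposited value. The part of the markers in the results below was not tested. In bulk tissue, fewer cells of a type and less RNA per cell cannot be told apart.

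No member passed the test between plasmids. Limma on log2(FPKM + 1) called 0 of 10152 tested genes (0%) at an adjusted p of 0.05, and 1593 genes (15.7%) had an unadjusted p below 0.05. Voom on recovered reads also called 0 genes, and 289 genes but 0 members passed without sh3. Weighting libraries by their scatter (limma's array weights) called 7 of the 38 members (18.4%), all lower, and 2709 tested genes (26.7%). In the unweighted test the adjusted p of the members ran from 0.200 to 0.983. Of the 38 members, 19 had a negative and 19 a positive log2 fold change (shBicd2 minus scramble), with a median of -0.0046 against -0.06 over all tested genes, of which 58.6% were negative. All shBicd2 values lay below all scramble values for 3 members (7.89%), against 18.7% of tested genes, and above them for 0 members, against 5.70%. The 3 genes, Insig2, Idi1 and Acacb, were also the only members with an unadjusted p below 0.05, against 12.7% of tested genes that were lower at that level. An unadjusted p below 0.05 with a higher level was found for 0 members, against 2.97% of tested genes. This background moved with the scaling: after median-of-ratios scaling 7.85% of tested genes were lower and 6.76% higher at an unadjusted p below 0.05, with 3 members lower and 1 higher, so the members' share of lower genes was near the background. Without sh1, 8 of the 38 members were lower and 0 higher, against 14.2% and 3.27% of tested genes. Without sh6, 3 members were lower and 4 higher, against 11.8% and 3.09% of tested genes.

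**Figure D1:**
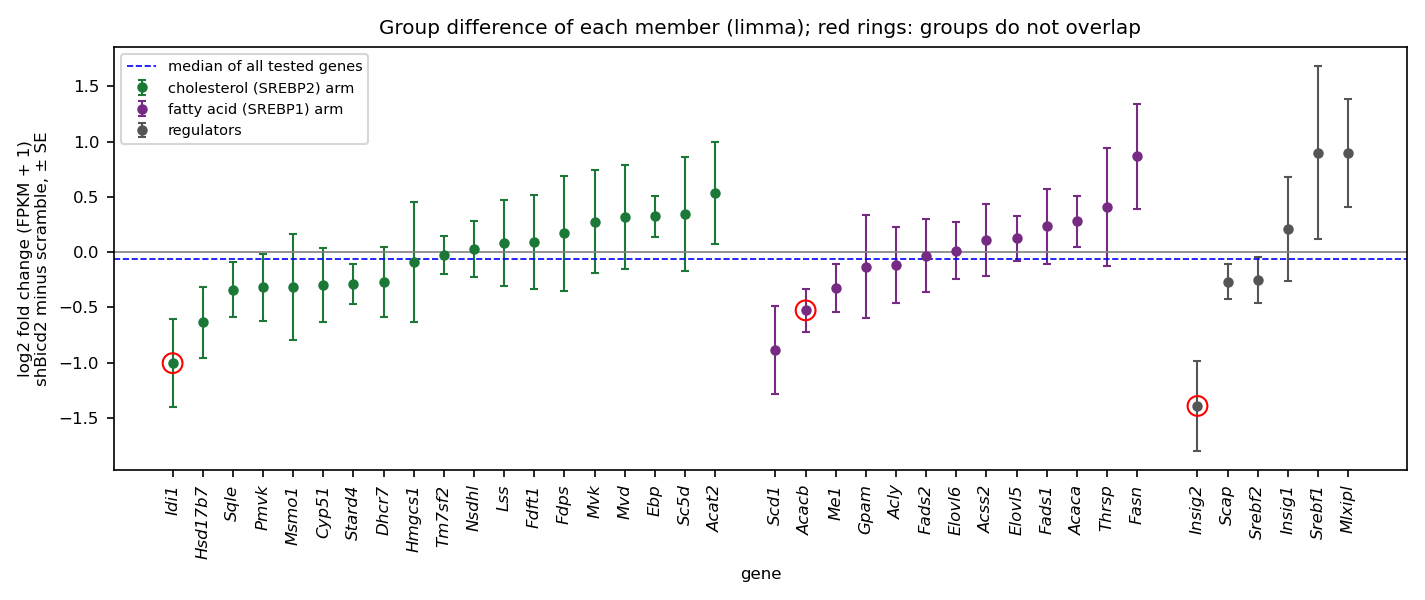
Difference of each of the 38 members between shBicd2 and scramble in log2(FPKM + 1), with its standard error (n = 3 libraries per group), by arm. Red rings mark Insig2, Idi1 and Acacb, whose groups do not overlap; the dashed line is the median of all tested genes, -0.06, and the other members lie on both sides of it.

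What the members did show was a large spread between libraries of one group. Among the shBicd2 libraries, 14 of 19 cholesterol genes (73.7%) and 9 of 13 fatty acid genes (69.2%) ranged over more than 1 log2 unit, against 17.5% of all tested genes. Among the scramble libraries it was 3 of 19 (15.8%) and 0 of 13, against 1.93%. The median range of a cholesterol gene was 1.38 log2 units in shBicd2 and 0.49 in scramble, and that of all tested genes 0.52 and 0.26. These ranges are of log2(FPKM + 1), which narrows those of low genes, and the comparison was not matched for level. A mean of at least 5 FPKM was reached by 36 of the 38 members and by 5199 of the 10152 tested genes.

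**Figure D2:**
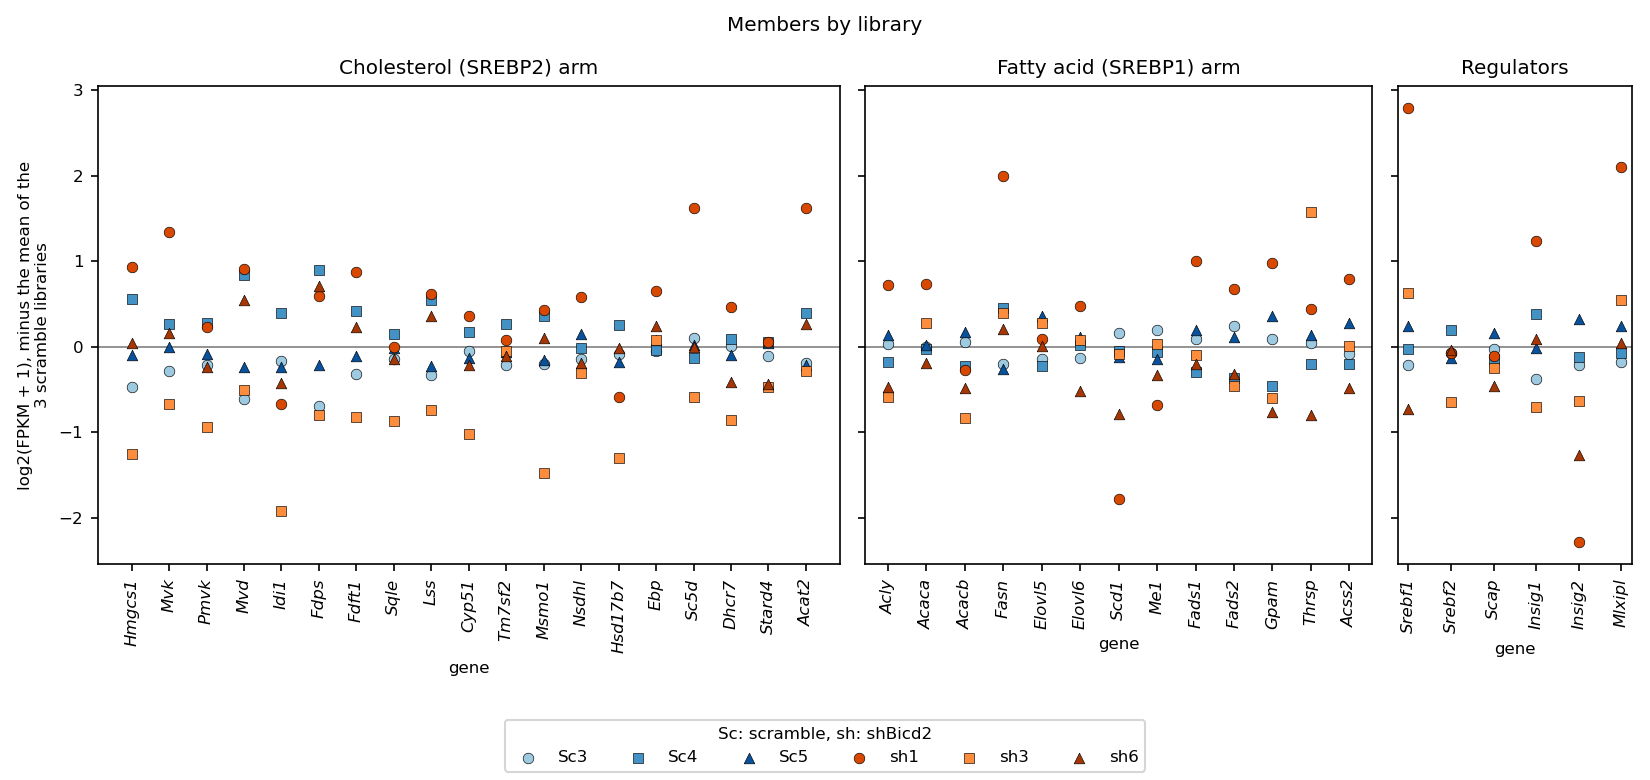
Level of each member in each of the 6 libraries as log2(FPKM + 1) minus the mean of the 3 scramble libraries. In the cholesterol arm sh1 (orange circles) is often highest and sh3 (light orange squares) lowest; Srebf1, Fasn and Mlxipl stand far up in sh1, and Insig2 and Scd1 far down.

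Regulators come first. Srebf1, which encodes SREBP1, was at 10.5, 12.1 and 14.8 FPKM with scramble, against 91.9 (sh1), 19.7 (sh3) and 7.06 (sh6) with shBicd2. Library sh1 was thus 7.36 times the scramble mean while sh6 was below every scramble library, and the groups overlapped. The log2 fold change of Srebf1 was 0.90 ± 0.78 (SE; limma adjusted p = 0.610), and it was -0.05 without sh1 and -0.46 with array weights. Those weights were 4.67 for sh6, 0.284 for sh3 and 0.180 for sh1. In scramble they were 3.01 for Sc3, 1.21 for Sc4 and 1.15 for Sc5. Weighted values thus rest mainly on sh6 and, within scramble, on Sc3. Without sh6 the unweighted log2 fold change of Srebf1 was 1.71. Mlxipl followed a like order, at 19.1, 20.5 and 25.9 FPKM with scramble, against 96.6 (sh1), 32.2 (sh3) and 22.3 (sh6) with shBicd2. Its log2 fold change was 0.90 ± 0.49 (SE; limma adjusted p = 0.415), 0.30 without sh1 and 0.20 with array weights; sh6 lay inside the scramble range.

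Srebf2, which encodes SREBP2, varied little by comparison. It was at 10.9, 13.3 and 10.4 FPKM with scramble, against 10.9 (sh1), 6.97 (sh3) and 11.1 (sh6) with shBicd2, with only sh3 outside the scramble range. Its log2 fold change was -0.25 ± 0.21 (SE; limma adjusted p = 0.590). Scap was at 9.76, 8.89 and 11.2 FPKM with scramble, against 9.15 (sh1), 8.22 (sh3) and 6.94 (sh6) with shBicd2. Its log2 fold change was -0.27 ± 0.16 (SE; limma adjusted p = 0.450), with sh1 between the scramble values; with array weights it passed (limma adjusted p = 0.0196, from 0.0196 to 0.795 over the alternatives).

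The 2 Insig genes, whose products both retain Scap, behaved differently. Insig1, itself an SREBP target, was at 71.7, 122 and 92.5 FPKM with scramble, against 221 (sh1), 57.0 (sh3) and 99.1 (sh6) with shBicd2. Its groups overlapped, with sh1 highest and sh3 lowest of all 6 libraries (log2 fold change 0.21 ± 0.47 SE, limma adjusted p = 0.857; -0.31 without sh1). Insig2 (GRCm38 chromosome 1, 121304353 to 121332589, minus strand), whose liver transcript is known to fall with insulin, was at 92.3, 98.1 and 134 FPKM with scramble, against 21.1 (sh1), 68.7 (sh3) and 44.0 (sh6) with shBicd2. All 3 shBicd2 values of Insig2 lay under the scramble values, with sh1 lowest, where Insig1 was highest.

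The means of Insig2 were 108 ± 22.8 and 44.6 ± 23.8 FPKM (SD, n = 3), and the log2 difference was -1.39 ± 0.40 (SE). It was the member of smallest p and did not pass (limma adjusted p = 0.200; exact two-sided permutation p = 0.1, the smallest that 3 against 3 libraries can give). With array weights it passed (log2 fold change -1.19, limma adjusted p = 0.00377; 0.00377 to 0.596 over the alternatives), a setting in which 2709 tested genes (26.7%) did so. The values rest on 1340 to 7479 reads per library.

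**Figure D3:**
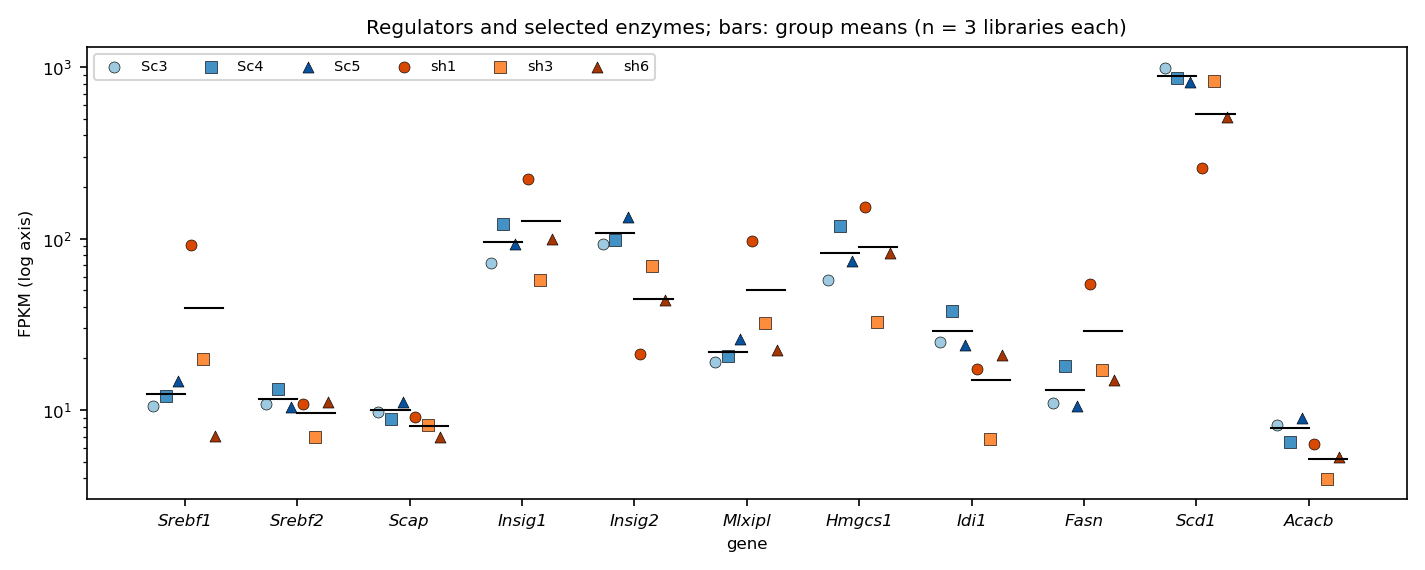
FPKM on a log axis in each library for the 6 regulators and for Hmgcs1, Idi1, Fasn, Scd1 and Acacb; horizontal bars are group means over 3 libraries. Insig2, Idi1 and Acacb have all shBicd2 points below all scramble points, and Srebf1, Mlxipl and Fasn have a single high point, sh1 (91.9, 96.6 and 54.0 FPKM).

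The cholesterol arm converts acetyl-CoA through mevalonate, isoprenoids and squalene to sterols. Of its 19 genes, 10 had negative and 9 positive log2 fold changes, from -1.004 to 0.54, with a median of -0.02; 0 passed. The median was -0.30 without sh1, and it was positive without sh3 (0.27), without Sc4 (0.11) and after median-of-ratios (0.06) or quantile scaling (0.01). The arm was ordered by library instead. Its median level relative to the scramble mean was 0.59 in sh1, -0.80 in sh3 and -0.01 in sh6 on the log2 scale, and -0.19, 0.27 and -0.10 in Sc3, Sc4 and Sc5.

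Library sh3 was the lowest of the 6 for 16 of the 19 genes (84.2%), where it was lowest for 33.9% of all tested genes. Sh3 values lay low in general, at a median of -0.18 over all tested genes; after median-of-ratios scaling, which removes this shift, sh3 was lowest for 12 of 19 (63.2%), against 15.7%. Library sh1 was highest for 12 of 19 (63.2%) under both scalings, against 34.1% of tested genes as deposited and 28.2% after scaling, and for 9 of 19 (47.4%) on the TPM scale, against 28.9%. Within the scramble group Sc4 was highest for 16 of 19 (84.2%), against 37.4% of tested genes. These counts describe the libraries, since members share them.

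At the entry of the pathway, Hmgcs1, which makes HMG-CoA, was at 57.0, 118 and 74.0 FPKM with scramble, against 152 (sh1), 32.7 (sh3) and 82.0 (sh6) with shBicd2. The group means of Hmgcs1, 82.9 ± 31.3 and 89.1 ± 60.2 FPKM (SD, n = 3), differed by less than the spread within either group. Mvk, mevalonate kinase, ranged from 4.66 to 7.30 FPKM in scramble and from 3.31 (sh3) to 16.4 (sh1) FPKM in shBicd2. Its neighbours Pmvk and Mvd, which complete the step from mevalonate to isopentenyl diphosphate, also had their lowest shBicd2 value in sh3 and their highest in sh1.

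Idi1 (GRCm38 chromosome 13, 8885501 to 8892451, plus strand), the isomerase that interconverts the isoprenoid building blocks, was the only gene of the arm whose groups did not overlap. It was at 25.1, 37.7 and 24.0 FPKM with scramble, against 17.5 (sh1), 6.77 (sh3) and 20.8 (sh6) with shBicd2. In contrast to most of the arm, Idi1 was below the scramble range in sh1 as well. Its log2 fold change was -1.004 ± 0.40 (SE; limma adjusted p = 0.290; exact two-sided permutation p = 0.1), -0.55 without sh3 and -0.46 with array weights. The gene model Gm13502 shares 684 bases with Idi1 at 100% identity, so the assignment of its reads is uncertain.

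Farther down, Fdps, farnesyl diphosphate synthase, had the widest scramble spread of the arm as a ratio, 4.57 times from 1.30 (Sc3) to 5.92 (Sc4) FPKM, on 97 to 447 reads and with near-identical copies Gm5873 and Gm3571 in the table. Fdft1, squalene synthase, spanned 22.7 to 38.6 FPKM in scramble and 15.7 (sh3) to 53.1 (sh1) FPKM in shBicd2; 18.3% of its exon bases are shared with Ctsb on the opposite strand. Sqle, squalene epoxidase, was steadier, at 37.7, 46.7 and 41.6 FPKM with scramble, against 41.7 (sh1), 22.4 (sh3) and 37.9 (sh6) with shBicd2. Only sh3 left the scramble range of Sqle (log2 fold change -0.34 ± 0.25 SE, limma adjusted p = 0.545).

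Of the sterol-modifying enzymes, Cyp51, lanosterol demethylase, was at 45.8, 53.9 and 43.4 FPKM with scramble, against 61.3 (sh1), 22.9 (sh3) and 40.8 (sh6) with shBicd2. Its log2 fold change was -0.29 ± 0.33 (SE; limma adjusted p = 0.704), and 0.07 without sh3. Msmo1, the methylsterol oxidase, was at 11.9 FPKM in sh3 and 47.5 FPKM in sh1, against 30.1 to 45.1 FPKM in scramble. Hsd17b7, a sterol ketoreductase, departed from the arm in sh1, at 13.2 FPKM and below the scramble range of 17.9 to 24.4 FPKM. Sc5d, lathosterol oxidase, and Acat2, the cytosolic thiolase, had the largest excess in sh1, at 3.12 and 3.23 times the scramble mean; Acat2 shares sequence with Acat3, which is also in the table. Lss, lanosterol synthase, Nsdhl, a sterol dehydrogenase, and Dhcr7, the last reductase before cholesterol, were lowest in sh3 (4.21, 18.7 and 10.05 FPKM) and highest in sh1 (12.3, 35.4 and 26.6 FPKM). Ebp, a sterol isomerase, was highest in sh1 as well, at 95.96 FPKM, but at 64.6 FPKM in sh3 it was not below its scramble range of 58.7 to 64.6 FPKM. Tm7sf2, a sterol reductase, and Stard4, a cholesterol carrier, were the least variable in shBicd2, at 18.7 to 21.4 and 9.87 to 14.7 FPKM.

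**Figure D4:**
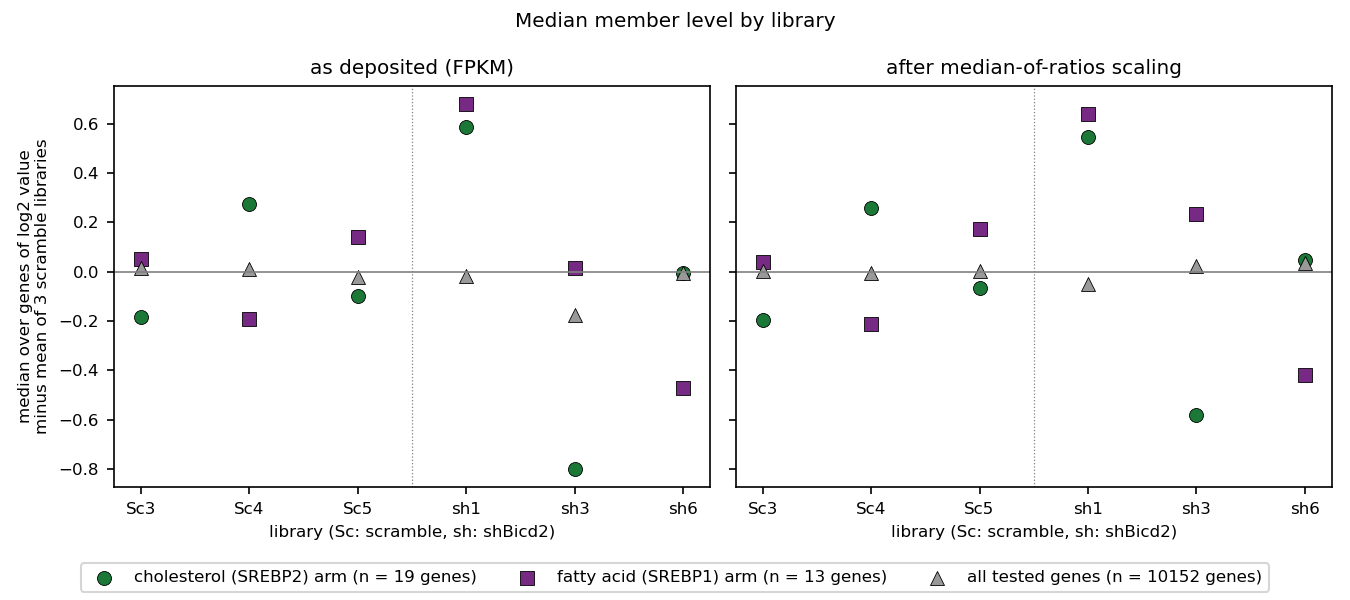
Median over the genes of each arm of the log2 level minus the scramble mean, by library, as deposited (left) and after median-of-ratios scaling (right), with all tested genes in grey. The cholesterol arm is at 0.59 in sh1 and -0.80 in sh3 as deposited, and at 0.55 and -0.58 after scaling; the fatty acid arm is lowest in sh6.

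The fatty acid arm turns citrate and acetate into long-chain and unsaturated fatty acids. Of 13 genes, 6 had negative and 7 positive log2 fold changes, from -0.89 to 0.87, with a median of 0.02; 0 passed. The median was -0.22 without sh1 and -0.39 with array weights. Its order of libraries was not that of the cholesterol arm. The median level relative to the scramble mean was 0.68, 0.01 and -0.47 in sh1, sh3 and sh6, and 0.05, -0.19 and 0.14 in Sc3, Sc4 and Sc5.

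Library sh6 was the lowest of the shBicd2 libraries for 8 of 13 genes (61.5%), against 17.2% of all tested genes, and sh3 for 3 of 13 (23.1%), against 49.4%. In scramble, Sc4 was lowest for 9 of 13 (69.2%), against 33.2%, although it was the highest scramble library in the cholesterol arm. Library sh1 was high in both arms and was the highest of all 6 for 8 of the 13 genes (61.5%), against 34.1%. It was the lowest of all 6 for 2 of the 13 (15.4%), against 28.8%.

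Fasn, fatty acid synthase, was at 10.96, 18.0 and 10.6 FPKM with scramble, against 54.0 (sh1), 17.2 (sh3) and 14.9 (sh6) with shBicd2. Its excess lay in sh1, at 4.11 times the scramble mean, and the other shBicd2 libraries were inside the scramble range (log2 fold change 0.87 ± 0.48 SE, limma adjusted p = 0.415; 0.30 without sh1). Acaca, the acetyl-CoA carboxylase of fatty acid synthesis, was at 1.89, 1.85 and 1.92 FPKM with scramble, against 3.82 (sh1), 2.51 (sh3) and 1.54 (sh6) with shBicd2. The narrow scramble range of Acaca was left upwards by sh1 and sh3 and downwards by sh6 (log2 fold change 0.28 ± 0.23 SE, limma adjusted p = 0.592; -0.13 with array weights). Gm5182 shares 6118 bases with Acaca at 99.2% identity, so the assignment of its reads is uncertain.

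Acacb (GRCm38 chromosome 5, 114146535 to 114250761, plus strand), the mitochondrial-membrane carboxylase whose malonyl-CoA restrains fatty acid oxidation, went the other way. It was at 8.17, 6.54 and 8.98 FPKM with scramble, against 6.31 (sh1), 3.99 (sh3) and 5.34 (sh6) with shBicd2. The groups did not overlap, but sh1 lay close under Sc4 (log2 fold change -0.53 ± 0.19 SE, limma adjusted p = 0.261; exact two-sided permutation p = 0.1). With array weights Acacb passed (limma adjusted p = 0.0155, from 0.0155 to 0.668 over the alternatives).

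Scd1, the desaturase that makes oleate, was the most abundant member. It was at 993, 858 and 812 FPKM with scramble, against 257 (sh1), 832 (sh3) and 512 (sh6) with shBicd2. Scd1 was thus lowest in sh1, the library in which Srebf1 and Fasn were highest, and inside the scramble range in sh3 (log2 fold change -0.89 ± 0.39 SE, limma adjusted p = 0.340; 0.00827 with array weights, and 0.00827 to 0.729 over the alternatives). It shares 623 bases with Scd2 at 95.5% identity. Me1, malic enzyme, a source of NADPH, was also lowest in sh1, at 15.4 FPKM against 22.7 to 29.1 FPKM in scramble. Gm7049 shares 1716 bases with Me1 at 98.4% identity.

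Thrsp, a small protein of lipogenic tissue, stood out in another library: it was at 249.2 FPKM in sh3, against 72.3 to 91.6 FPKM in scramble, 113 FPKM in sh1 and 47.5 FPKM in sh6. Elovl6, which elongates palmitate, was at 5.92, 6.72 and 7.20 FPKM with scramble, against 9.61 (sh1), 7.04 (sh3) and 4.30 (sh6) with shBicd2. Its log2 fold change was 0.02 ± 0.25 (SE; limma adjusted p = 0.983). Gm11295 shares 805 bases with Elovl6 at 97.4% identity. Acly, Fads1, Fads2, Gpam and Acss2, which supply acetyl-CoA, desaturate or start glycerolipid synthesis, were highest in sh1, at 1.67, 2.01, 1.59, 1.98 and 1.83 times the scramble mean. Elovl5, an elongase of polyunsaturated fatty acids, was the least variable of the arm in shBicd2, at 44.3 to 53.8 FPKM.

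Promoter letters were searched in all members with a window, and stretches are printed for a few. Of these, Hmgcs1, Mvk and Insig1 had the library order of the cholesterol arm. Fasn had the order of the fatty acid arm in shBicd2 but not in scramble, where it was highest in Sc4. Insig2 is the contrast. RefSeq windows (GRCm38.p6, 250 bases before to 50 after a start) were found for 33 of the 39 listed genes, in 44 windows. Both strands were searched for TCACNCCAC and its variants TCACCCNAC and TCANNCCAC, forms of the sterol regulatory element, which overlap one another, for CCAAT, the box bound by NF-Y, a known partner of SREBPs, and for CACGTG, the E-box. TCACNCCAC was in 2 member windows (4.55%), those of Hmgcs1 and Mlxipl, against 1.24% of all 32851 windows; TCACCCNAC was in 2 (4.55%), against 0.992%, and TCANNCCAC in 5 (11.4%), against 4.18%. CCAAT was in 29 windows (65.9%), against 37.4%, and in 14 of 18 windows of the cholesterol arm (77.8%). CACGTG was in 8 windows (18.2%), against 7.15%. A match describes letters and not binding.

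The following are 200 bases each that end at the RefSeq start, or, for Insig1, at the earlier GENCODE start, 5′ to 3′ on the gene's strand; capitals mark TCACNCCAC, CCAAT (as ATTGG on the other strand) and CACGTG. Hmgcs1 (chr13:119690151-119690350, plus strand) shows the element with CCAAT on either side, its first base at -137 from the start. Mvk (chr5:114444069-114444268, plus strand) holds CCAAT 5 times and Fasn (chr11:120824548-120824747, minus strand) 3 times. Insig1 (chr5:28071163-28071362, plus strand), which had the library order of the cholesterol arm, and the upstream window of Insig2 (chr1:121332590-121332789, minus strand), which had another, are shown side by side.
Hmgcs1: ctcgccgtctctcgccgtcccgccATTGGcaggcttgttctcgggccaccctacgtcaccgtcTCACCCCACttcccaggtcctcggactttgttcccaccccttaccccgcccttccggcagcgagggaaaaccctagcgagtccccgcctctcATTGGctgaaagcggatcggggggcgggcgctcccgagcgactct
Mvk: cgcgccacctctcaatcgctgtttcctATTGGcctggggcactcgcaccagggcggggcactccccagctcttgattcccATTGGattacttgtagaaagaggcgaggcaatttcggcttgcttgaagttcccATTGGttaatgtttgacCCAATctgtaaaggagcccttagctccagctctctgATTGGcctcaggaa
Fasn: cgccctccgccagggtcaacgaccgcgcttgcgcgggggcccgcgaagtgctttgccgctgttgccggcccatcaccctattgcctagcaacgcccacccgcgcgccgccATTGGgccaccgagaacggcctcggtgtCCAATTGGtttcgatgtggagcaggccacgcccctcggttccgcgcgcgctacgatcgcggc
Insig1: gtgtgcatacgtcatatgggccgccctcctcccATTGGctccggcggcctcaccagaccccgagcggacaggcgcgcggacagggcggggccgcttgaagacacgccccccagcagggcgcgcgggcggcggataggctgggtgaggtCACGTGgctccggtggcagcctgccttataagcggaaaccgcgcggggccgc
Insig2: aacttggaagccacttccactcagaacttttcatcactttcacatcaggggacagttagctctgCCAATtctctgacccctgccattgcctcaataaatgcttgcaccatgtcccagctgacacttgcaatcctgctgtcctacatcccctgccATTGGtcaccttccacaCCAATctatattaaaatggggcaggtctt

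Genes around the pathway were read from 6 further lists, in which 0 genes passed. Of the genes named from them, Aup1, Cyb5r3, Lbr, Soat1, Npc2, Mylip, Lpin2, Dgat2 and Txnip passed with array weights, at limma adjusted p from 0.00214 (Dgat2) to 0.0309 (Aup1). That setting rests mainly on sh6 and, within scramble, on Sc3, and it called 2709 tested genes (26.7%). These genes were named for having the smallest p of their list in the same data, so their passing is no separate evidence. In the SREBP processing and turnover list (10 tested), 5 fold changes were negative and 5 positive, with a median of -0.0034. Aup1, which helps degrade sterol-sensing proteins, was at 18.5 ± 1.68 and 24.8 ± 4.04 FPKM (SD, n = 3), and Rnf139, a ubiquitin ligase, at 8.06 ± 0.980 and 6.17 ± 0.744 FPKM. Both had groups that did not overlap and did not pass (limma adjusted p = 0.319 and 0.348).

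Of 7 isoprenoid and sterol accessory genes, 4 were negative, with a median of -0.19. Cyb5r3, the reductase that feeds cytochrome b5, was at 41.4 ± 2.91 and 56.9 ± 7.60 FPKM (SD, n = 3), and Lbr, a sterol reductase of the nuclear envelope, at 4.20 ± 0.554 and 2.92 ± 0.390 FPKM (limma adjusted p = 0.258 and 0.259). Of 9 tested genes of sterol esterification and trafficking, 7 were negative, with a median of -0.15. Soat1, a cholesterol acyltransferase, was at 1.62, 1.36 and 2.05 FPKM with scramble, against 1.001 (sh1), 0.830 (sh3) and 0.658 (sh6) with shBicd2, without overlap (limma adjusted p = 0.198), and Npc2, a lysosomal cholesterol carrier, overlapped at 11.5 ± 0.636 and 9.34 ± 1.39 FPKM (SD, n = 3).

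Among 9 tested genes of the sterol-sensing receptor LXR and its targets, 5 were negative, with a median of -0.00036. Abca1, the cholesterol exporter, was at 53.5 to 74.0 FPKM with scramble, against 16.5 (sh1), 67.5 (sh3) and 45.2 (sh6) with shBicd2, and Mylip, a ubiquitin ligase for lipoprotein receptors, at 1.31 ± 0.162 and 0.854 ± 0.361 FPKM (SD, n = 3). The low sh1 value of Abca1 was not shared by the whole list. In sh1, Abcg5, Abcg8 and Lpcat3 were at 3.69, 2.38 and 1.88 times the scramble mean, and Pltp and Arl4c at 0.671 and 0.347 times. Nr1h3, Abcg1, Nr1h2 and Mylip lay between, at 1.36, 1.16, 0.998 and 0.973 times. Arl4c was too low to be tested, and all its shBicd2 values lay under its scramble values, with sh6 lowest. In the list of 16 other lipogenic genes, 9 were negative, with a median of -0.05. Lpin2, a phosphatidate phosphatase, was at 43.0, 40.8 and 61.7 FPKM with scramble, against 12.5 (sh1), 23.6 (sh3) and 23.4 (sh6) with shBicd2 (log2 fold change -1.28 ± 0.29 SE, limma adjusted p = 0.169). Dgat2, which makes triglyceride, was at 179, 202 and 172 FPKM with scramble, against 98.8 (sh1), 147 (sh3) and 79.1 (sh6) with shBicd2 (limma adjusted p = 0.204; 0.0426 without sh3, and 0.00214 to 0.596 over the alternatives). Both had every shBicd2 value under every scramble value.

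Of 7 ChREBP targets found of 8 listed, 4 were negative, with a median of -0.01. Txnip, a glucose-responsive arrestin, was at 21.2, 26.7 and 28.7 FPKM with scramble, against 5.28 (sh1), 18.3 (sh3) and 9.07 (sh6) with shBicd2 (limma adjusted p = 0.204; 0.0354 without sh3, and 0.00273 to 0.596 over the alternatives), and Tkfc, a kinase of fructose breakdown, at 39.5 ± 2.01 and 51.8 ± 9.76 FPKM (SD, n = 3; adjusted p = 0.369). Mid1ip1, a lipogenic gene chosen after its values were seen, resembled Srebf1 in that sh1 was far above the rest. Its product promotes acetyl-CoA carboxylase assembly, and it was at 4.44 to 7.34 FPKM with scramble, against 45.8 (sh1), 3.93 (sh3) and 7.27 (sh6) with shBicd2. It did not pass (limma adjusted p = 0.573).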

How the data were processed

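Liver RNA was purified with Trizol, and per the labels' protocols TruSeq libraries were run on a NovaSeq. Alignment with HISAT2 2.0.5 and counting with featureCounts 1.5.0-p3 on mm10 are named in the submitters' processing notes; of annotation, strand setting and handling of shared reads, the sources used here say nothing. The authors deposited FPKM, 1 column per library and 0 columns of other samples; no further scaling is stated. Column names give the group, not the labelled replicate.

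Values were tested as log2(FPKM + 1) where the mean reached 1 FPKM, using trended eBayes in limma 3.58.1 under R 4.3.3 (two-sided, Benjamini-Hochberg over 10152 genes, threshold 0.05); this scale understates changes of low genes. Reads were recovered from steps in the values with GENCODE M21 exon lengths (GRCm38): 98.1% of 14339 matched genes were whole within 0.02 reads in every library. Shared sequence (at least 400 bases at 95% identity) was found by BLAST among GENCODE transcripts. The fit was tested on simulated data.

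Members, lists, alternatives and the naming rule were chosen with earlier results of these data known. Named in full were the 6 regulators, Hmgcs1, Idi1, Sqle, Cyp51, Acaca, Fasn, Scd1, Elovl6, members with non-overlapping groups or an unadjusted p below 0.05, and the 2 genes of smallest p per further list; other members by ranges. Some genes of the pathway are not reported here. Alternatives were other pseudocounts, filters, scalings and variance models, leaving out each library, and, added after the data were seen, limma's voom on recovered reads. Figures used matplotlib 3.10.9 in Python 3.11.15.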

Additional observations from a re-analysis of the deposited data

How the results depend on the processing

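Of 16 alternatives, 14 also called 0 genes: pseudocounts of 0.1 and 0.01, no filter, a mean of at least 5 FPKM, TPM, median-of-ratios and quantile scaling, eBayes without trend, voom on recovered reads, and leaving out Sc3, Sc4, Sc5, sh1 or sh6. Array weights called 2709 genes and 7 of the 38 members (18.4% against 26.7% of all tested genes), all lower: Stard4, Acacb, Scd1, Me1, Gpam, Scap and Insig2. Leaving out 1 library gave 0 to 289 genes, the latter without sh3, and 0 members. Scaling moved the median of all tested genes from -0.06 to -0.16 (TPM), 0.01 (median-of-ratios) and 0.02 (quantile), and that of the cholesterol arm to -0.12, 0.06 and 0.01.

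For 28 named genes, 416 of 444 values kept direction and side of the threshold, 15 passed it newly (13 with array weights, Dgat2 and Txnip also without sh3) and 13 changed sign. The sign changed for Srebf1 (-0.458 with array weights; leaving out 1 library gave -0.0493 without sh1 to 1.71 without sh6), Insig1 (-0.306 without sh1 to 0.663 without sh3), Hmgcs1 (0.164 with array weights; -0.601 without sh1 to 0.493 without sh3, and 0.19 without Sc4), Cyp51 (-0.619 without sh1 to 0.0728 without sh3), Acaca (-0.127 with array weights) and Elovl6 (-0.0790 on the TPM scale, -0.41 with array weights; -0.219 without sh1 to 0.282 without sh6, and negative without Sc3 or sh3, at -0.05 and -0.02); the cause was not tested. No paired analysis was possible because the columns carry no labelled replicate numbers. With 3 libraries a group, members that vary by several fold within shBicd2 have wide standard errors, and differences above their standard error, such as that of Insig2, were also not called.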
